A study of Mus musculus with 6 samples.

Results

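The bone morphogenetic protein (BMP) ligand genes Bmp4 and Bmp7, the SMAD genes Smad1, Smad5, Smad4, Smad6 and Smad7 and the target genes Id1, Id2 and Id3 were examined in the tail tissue of mouse embryos that lack normal Dll3. These 10 genes, of 12393 with a name on the array, are read by 18 probe sets, counted as every probe set other than the array's controls that the platform annotation gives to exactly 1 of the symbols. Smad5 was put at the head of the set because 1 of its probe sets was among the lowest in the mutant in this same comparison, and the others were added for their role in the pathway with results of these data known. The values of the 18 probe sets between genotypes are therefore a description, and no test of them is offered as support.

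The samples were 3 wild-type pools, of strain C57BL/6 in the labels, and 3 pools homozygous for the Dll3 allele tm1Rbe, also written Dll3neo/neo, on C57BL/6. Dll3 encodes a divergent Notch ligand that is needed for the segmentation clock, the oscillator that times the formation of somites. All embryos were collected at 9.5 days post coitum and cut at the border between the presomitic mesoderm and the newest somite after the allantois was removed. The excised level held cells of all germ layers, the number of embryos in a pool is not stated here, and in such bulk RNA fewer cells of a type and less RNA per cell cannot be told apart.

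BMPs are secreted dimers that bind type I and type II serine/threonine kinase receptors. The type I receptor phosphorylates SMAD1, SMAD5 or SMAD9, which join SMAD4, enter the nucleus and switch on targets such as the Id genes, whose products hold bHLH factors off DNA. SMAD6 and SMAD7 are themselves induced by the pathway and limit it. In the tail, BMP signals come from ventral, lateral and surface tissues, and their antagonists keep the paraxial mesoderm from taking a lateral fate.

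Each value is a linear ratio of a probe set on 1 array to the median of that probe set over the 6 arrays. A ratio of 1 is the middle of the 6 pools, and the values carry no absolute level, so levels of different genes were not compared and the presence of the defining markers of presomitic mesoderm could not be checked. All 18 probe sets had a median of 1 within 0.0011, so none of them was held at the file's floor, and no filter removed any. The median ratio over all 22626 probe sets was between 0.985 and 1.01 in every pool. Dll3 itself, by its single probe set 1449236_at, was between 1.46 and 2.01 across wild-type pools and between 0.476 and 0.537 in the mutant, and it was the 1 probe set that passed limma's test over all probe sets (0.00442% of those tested). That call was lost without wild-type pool 2 (limma adjusted p = 0.0757) and without mutant pool 1, 2 or 3 (0.0924, 0.0699 and 0.0627). Which part of the transcript this probe set reads is unknown here.

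Smad5, a SMAD activated directly by BMP receptors, was read by 2 probe sets that disagreed. Probe set 1451873_a_at was at 1.08, 1.22 and 1.33 for wild-type pools 1, 2 and 3, and at 0.858, 0.737 and 0.919 in mutant pools 1, 2 and 3. The highest mutant value was under the lowest wild-type value. The wild-type mean was 1.21 ± 0.125 (SD, n = 3) and the mutant mean 0.838 ± 0.0926 (SD, n = 3), giving a log2 difference of -0.53 (SE 0.13), or 1.45-fold lower. Over all probe sets 1.99% had such a gap with the mutant lower, and as this probe set was picked from that comparison nothing is read from the gap.

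The other Smad5 probe set, 1421047_at, did not share that decrease. It was at 1.13, 0.969 and 0.814 for wild-type pools 1, 2 and 3, and at 1.03, 1.05 and 0.935 in the mutant pools. The genotypes overlapped fully, the mutant values lying inside the wild-type range, and the log2 difference was 0.06 (SE 0.14). It was 0.17 without wild-type pool 1 and turned to -0.06 without wild-type pool 3. Among the wild-type pools the probe sets ran in opposite directions, since pool 3 was highest by 1451873_a_at and lowest by 1421047_at. The log2 ratio of 1451873_a_at minus that of 1421047_at was -0.07, 0.34 and 0.71 for wild-type pools 1, 2 and 3, and -0.26, -0.50 and -0.02 in the mutant pools. By this within-array gap mutant pool 3 lay above wild-type pool 1, so the genotypes were not separated. Averaging both probe sets gave a log2 difference of -0.24 for the gene. The average was at 0.15, 0.12 and 0.06 (log2) in the wild-type pools and at -0.09, -0.19 and -0.11 in the mutant pools. By this average the genotypes did not overlap. It includes the probe set that was picked for being low, so nothing is read from that. A probe set whose name ends in _a_at is designed to read several transcripts of its gene, and which Smad5 transcripts each one reads is not known here.

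Smad5 has 3 transcription starts in the RefSeq promoter table of GRCm38.p6, the second 42 and the third 658 bases downstream of the first. The 250 bases before the first and the third are shown because Smad5 transcripts are annotated from both places. Which transcripts each probe set reads is not known, so neither window is tied to a probe set. Capitals mark GTCT or its complement AGAC, the short sequence that SMAD proteins bind, and CAGAC or GTCTG, which holds it. Before the first start (chr13:56702760-56703009, plus strand) there was 1 such match, and before the third (chr13:56703418-56703667, plus strand) there were 2.
Smad5, start 1: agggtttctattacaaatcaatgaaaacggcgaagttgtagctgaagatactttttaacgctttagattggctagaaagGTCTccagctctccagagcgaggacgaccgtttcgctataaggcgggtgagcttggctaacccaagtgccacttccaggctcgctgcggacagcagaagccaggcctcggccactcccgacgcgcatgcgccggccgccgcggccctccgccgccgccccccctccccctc
Smad5, start 3: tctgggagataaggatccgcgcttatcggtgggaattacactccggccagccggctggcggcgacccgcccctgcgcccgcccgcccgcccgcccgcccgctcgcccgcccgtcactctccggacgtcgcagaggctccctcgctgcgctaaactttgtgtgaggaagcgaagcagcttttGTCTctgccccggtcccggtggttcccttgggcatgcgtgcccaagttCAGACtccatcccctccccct
Matches this short are common, as 88.0% of the 32851 windows of 300 bases in the table (250 before a start and 50 after it) held GTCT on either strand and 49.6% held CAGAC.

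**Figure D1:**
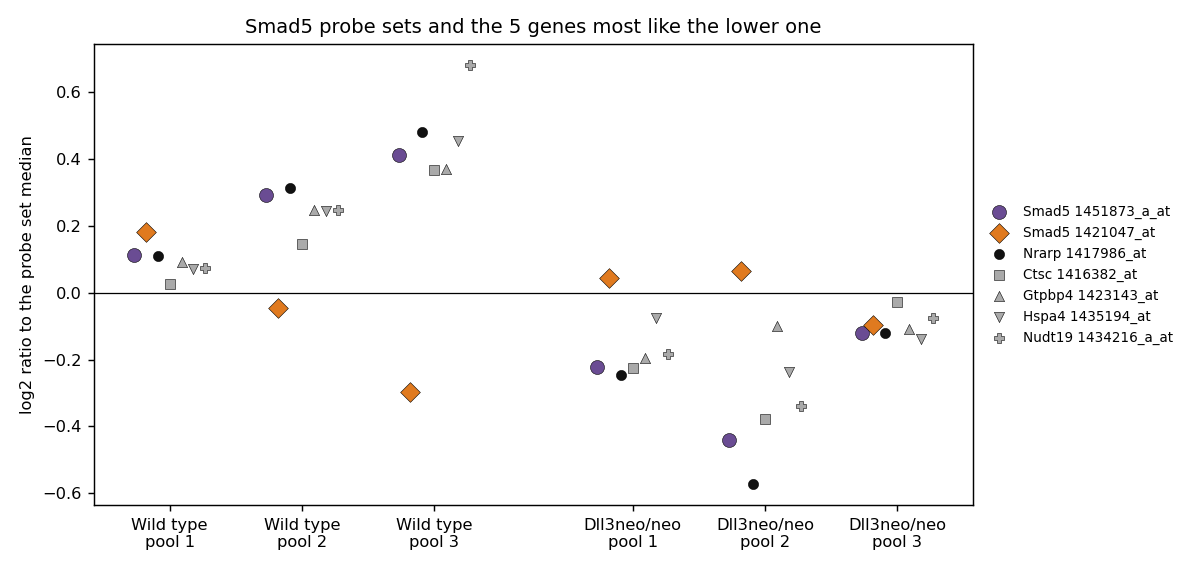
Log2 ratio to the probe set median (vertical axis) in each of the 6 pools (horizontal axis) for the 2 Smad5 probe sets and the 5 genes whose values were most like those of 1451873_a_at, each point being 1 array and points being spread sideways for legibility. Probe set 1451873_a_at is above 0 in all wild-type pools and below 0 in all mutant pools, while 1421047_at is lowest in wild-type pool 3.

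The gene whose 6 values were most like those of Smad5 1451873_a_at was Nrarp, a Notch target that feeds back on Notch signalling. Likeness was measured as the mean absolute difference of log2 ratios over the 6 pools, and for Nrarp 1417986_at it was 0.04. Nrarp was at 1.08, 1.24 and 1.39 in the wild-type pools and at 0.843, 0.672 and 0.920 in the mutant pools. That is the same order of pools as for Smad5 1451873_a_at. Nrarp was chosen for likeness over these same 6 values, so no link between the genes is read from the order. The next were Ctsc, a lysosomal protease gene, at a mean distance of 0.07, Gtpbp4, a ribosome biogenesis gene, at 0.08, Hspa4, a heat shock protein gene, at 0.08 and Nudt19 at 0.09. Their log2 differences between genotypes were -0.39, -0.37, -0.41 and -0.53, which follows from the choice by likeness. The member probe sets were not candidates in this choice. No other gene of the BMP pathway was among these nearest genes, and as so few were taken nothing is read from that. The member nearest to Smad5 1451873_a_at was Smad7 at 0.22, with 2113 of the 20362 candidate probe sets nearer, and the other Smad5 probe set was at 0.32, with 14530 nearer. Bmp7 was farthest, at 0.36 to 0.42.

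Smad1, the closest relative of Smad5 and activated by the same receptors, showed no gap between genotypes by either probe set. Probe set 1416081_at was at 0.939, 1.01 and 1.5 in the wild-type pools and at 0.901, 1.14 and 0.994 in the mutant pools. Wild-type pool 3 stood above the other 5 pools, and without it the log2 difference went from -0.16 (SE 0.18) to 0.05. Probe set 1448208_at was at 0.940, 0.973 and 1.07 across wild-type pools and at 1.03, 1.09 and 0.766 in the mutant, where pool 3 was the lowest of the 6. Its log2 difference was -0.06 (SE 0.15), and 0.09 without mutant pool 3. The single promoter window of Smad1 in the table held none of the SMAD motifs searched.

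Smad4, the shared partner of the receptor-activated SMADs, was read by 3 probe sets, whose values lay closer to each other than those of any other member with several. Their mean absolute difference over the 6 pools was 0.09 to 0.12 on the log2 scale, against 0.16 to 0.22 for Bmp7, 0.19 for Smad1, 0.19 to 0.34 for Id2 and 0.32 for Smad5. Probe set 1422486_a_at was at 0.869, 0.995 and 1.31 in the wild-type pools and at 0.872, 1.21 and 1.01 in the mutant pools. Probe set 1422487_at was at 0.915, 1.01 and 1.31 across wild-type pools and at 0.986, 1.13 and 0.894 among the mutant pools. Wild-type pool 3 was the highest of the 6 by all 3 probe sets, 1422485_at at 1.21 there included, and the genotypes overlapped in each. The log2 differences were -0.03, -0.10 and -0.06 for 1422486_a_at, 1422487_at and 1422485_at (SE 0.14 to 0.18), and all 3 turned to higher, at 0.13, 0.05 and 0.06, without wild-type pool 3.

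The inhibitory SMAD genes Smad6 and Smad7 did not separate the genotypes either. Smad6 (1422771_at), which competes with SMAD4 for activated SMAD1 and SMAD5, was at 0.826, 1.06 and 1.28 in the wild-type pools. In the mutant pools it was at 1.002, 0.998 and 0.975, a range of 1.03-fold inside a wild-type range of 1.55-fold. Its log2 difference was -0.07 (SE 0.16) and turned to 0.08 without wild-type pool 3. Smad7 (1423389_at), which also blocks the TGF-beta branch, was at 0.917, 1.03 and 1.02 across wild-type pools and at 1.06, 0.777 and 0.976 in the mutant, with mutant pool 2 the lowest of the 6. Its log2 difference was -0.09 (SE 0.14), and 0.04 without that pool. Taken by sign, 8 of the 9 SMAD probe sets were lower in the mutant and their median difference was -0.07 (log2), beside 50.9% of all probe sets and a median of -0.0021. Without wild-type pool 3 the count was 4 of 9, and without mutant pool 1 it was 6 of 9.

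The Id genes, read by 5 probe sets, were not lower together in the mutant. Id1 (1425895_a_at), an early BMP target in many cell types and also a Notch-clock gene, was at 0.886, 1.01 and 1.13 in the wild-type pools and at 0.992, 1.01 and 0.935 in the mutant pools, a log2 difference of -0.04 (SE 0.12). Id3 (1416630_at) was at 0.818, 0.948 and 1.15 across wild-type pools and at 0.827, 1.05 and 1.10 in the mutant, a difference of 0.03 (SE 0.16). For both, the mutant values lay inside the wild-type range, with wild-type pool 1 lowest and pool 3 highest of the 6 pools. Id1 turned to 0.05 without wild-type pool 3, and Id3 to -0.08 without wild-type pool 1.

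Id2 spread more among wild-type pools than between genotypes. Probe set 1435176_a_at was at 0.705, 1.02 and 1.497 in the wild-type pools, a 2.12-fold range that was the widest of all 18 probe sets, and at 0.963, 0.984 and 1.16 in the mutant pools. Its log2 difference was 0.01 (SE 0.24), and it went to -0.26 without wild-type pool 1 and to 0.29 without wild-type pool 3. Probe set 1422537_a_at was at 0.917, 0.999 and 1.001 across wild-type pools and at 0.922, 1.03 and 1.15 in the mutant, a difference of 0.08 (SE 0.12) that was 0.0030 without mutant pool 3. Probe set 1453596_at was at 0.968, 0.757 and 1.03 across wild-type pools and at 1.04, 1.13 and 0.940 in the mutant, a difference of 0.18 (SE 0.14) that was 0.05 without wild-type pool 2. Over the 5 Id probe sets 1 was lower and 4 were higher by sign, and their median difference was 0.03 on the log2 scale. The number of lower probe sets was 3 without wild-type pool 1 or mutant pool 3, 2 without mutant pool 2 and 0 when wild-type pool 3 was left out.

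Promoter sequence before Id2, Id3 and Smad6 is shown because these BMP-induced genes shared the order of the wild-type pools, lowest in pool 1 and highest in pool 3 by at least 1 probe set. Capitals mark GTCT or AGAC, CAGAC or GTCTG, the BMP-responsive GGCGCC, and the palindrome GTCTAGAC, which is made of GTCT and AGAC back to back. Positions count from the start, with the base before it as -1. Id2 (chr12:25096093-25096342, minus strand) held GGCGCC at -231 and AGAC at -23. Id3 (chr4:136143572-136143821, plus strand) held CAGAC at -167 and GTCTG at -68. Smad6 (chr9:64022056-64022309, minus strand) held GTCTAGAC from -4 to 4, across the start, so 4 bases after the start are included.
Id2: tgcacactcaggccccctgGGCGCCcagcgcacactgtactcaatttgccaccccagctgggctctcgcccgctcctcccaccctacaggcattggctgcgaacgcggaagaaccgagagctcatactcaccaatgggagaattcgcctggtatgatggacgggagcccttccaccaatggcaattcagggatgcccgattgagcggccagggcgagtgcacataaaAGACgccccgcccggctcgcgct
Id3: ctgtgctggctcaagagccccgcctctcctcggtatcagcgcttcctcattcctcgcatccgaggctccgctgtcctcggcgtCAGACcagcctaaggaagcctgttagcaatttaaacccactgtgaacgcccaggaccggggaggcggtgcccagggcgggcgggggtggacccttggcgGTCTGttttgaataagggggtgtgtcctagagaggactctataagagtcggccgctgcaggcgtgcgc
Smad6: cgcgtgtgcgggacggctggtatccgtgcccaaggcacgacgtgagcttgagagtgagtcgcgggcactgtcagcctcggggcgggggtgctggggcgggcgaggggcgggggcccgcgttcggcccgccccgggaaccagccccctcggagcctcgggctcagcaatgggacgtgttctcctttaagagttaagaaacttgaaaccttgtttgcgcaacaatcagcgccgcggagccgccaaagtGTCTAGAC
Of the 32851 windows of 300 bases, 11.9% held GGCGCC and 0.213% held GTCTAGAC, and a match is a description of the letters only. Bmp4 and the first and second Smad5 windows were searched too. Bmp4 held GTCT or AGAC at -222 and 36, and 1 GGCGCC lay at 24 in the first Smad5 window and at -19 in the second.

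Among the ligands, Bmp7, expressed in surface ectoderm, notochord and tail mesenchyme, was higher in the mutant by sign with all 3 of its probe sets, where 49.1% of all probe sets were higher. Probe set 1418910_at was at 0.904, 0.850 and 1.01 in the wild-type pools and at 1.31, 0.989 and 1.13 in the mutant pools. Of the mutant pools, pool 2 lay inside the wild-type range and the other 2 above it. The wild-type mean was 0.922 ± 0.0819 (SD, n = 3) and the mutant mean 1.14 ± 0.161 (SD, n = 3), a log2 difference of 0.30 (SE 0.13), or 1.23-fold higher. Without mutant pool 1, in which heart muscle markers had a median log2 ratio of 1.64, the difference was 0.20. Probe set 1435479_at was at 0.849, 1.05 and 0.836 across wild-type pools and at 1.15, 0.948 and 1.09 in the mutant, a difference of 0.22 (SE 0.13). Probe set 1432410_a_at was at 1.10, 0.905 and 0.851 across wild-type pools and at 1.10, 0.841 and 1.31 in the mutant, a difference of 0.18 (SE 0.17) that shrank to 0.03 without mutant pool 3. In each probe set mutant pools 1 and 3 were the highest of the 6 and mutant pool 2 lay among the wild-type pools or below them.

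The pool pattern of Bmp7 was set beside the tissue markers. The median log2 ratio of the 3 Bmp7 probe sets was -0.15, -0.14 and -0.23 in the wild-type pools and 0.21, -0.08 and 0.17 in the mutant pools. The 18 probe sets of lateral plate and allantois markers, such as Hand1 and Foxf1, had medians of -0.04, 0.01 and -0.14 across wild-type pools and 0.06, 0.0029 and 0.07 in the mutant. Their median too was highest in mutant pools 1 and 3, and 16 of the 18 probe sets were higher in the mutant by sign. Single probe sets did not all share that order. Hand1 1417525_at was highest in those pools, but Hand1 1448750_at was highest in wild-type pool 1 at 1.07. Foxf1 was highest in mutant pool 3 at 1.15, but it was at 1.12 in wild-type pool 1 and at 1.005 in mutant pool 1. Heart muscle markers, 18 probe sets of 12 genes, had a median of 1.64 in mutant pool 1 and between -0.27 and -0.0065 in the other pools. Surface ectoderm markers, where Bmp7 is also made, had medians between -0.06 and 0.07 over the 6 pools. The part of these tissues in the Bmp7 values was not tested.

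Bmp4 (1422912_at), which patterns ventral and posterior mesoderm, differed by 0.04 on the log2 scale (SE 0.16). It was at 0.750, 1.09 and 1.07 in the wild-type pools and at 1.05, 0.949 and 0.945 in the mutant pools. Wild-type pool 1 was the lowest of the 6, the mutant pools lay between it and the other wild-type pools, and without it the log2 difference was -0.14.

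**Figure D2:**
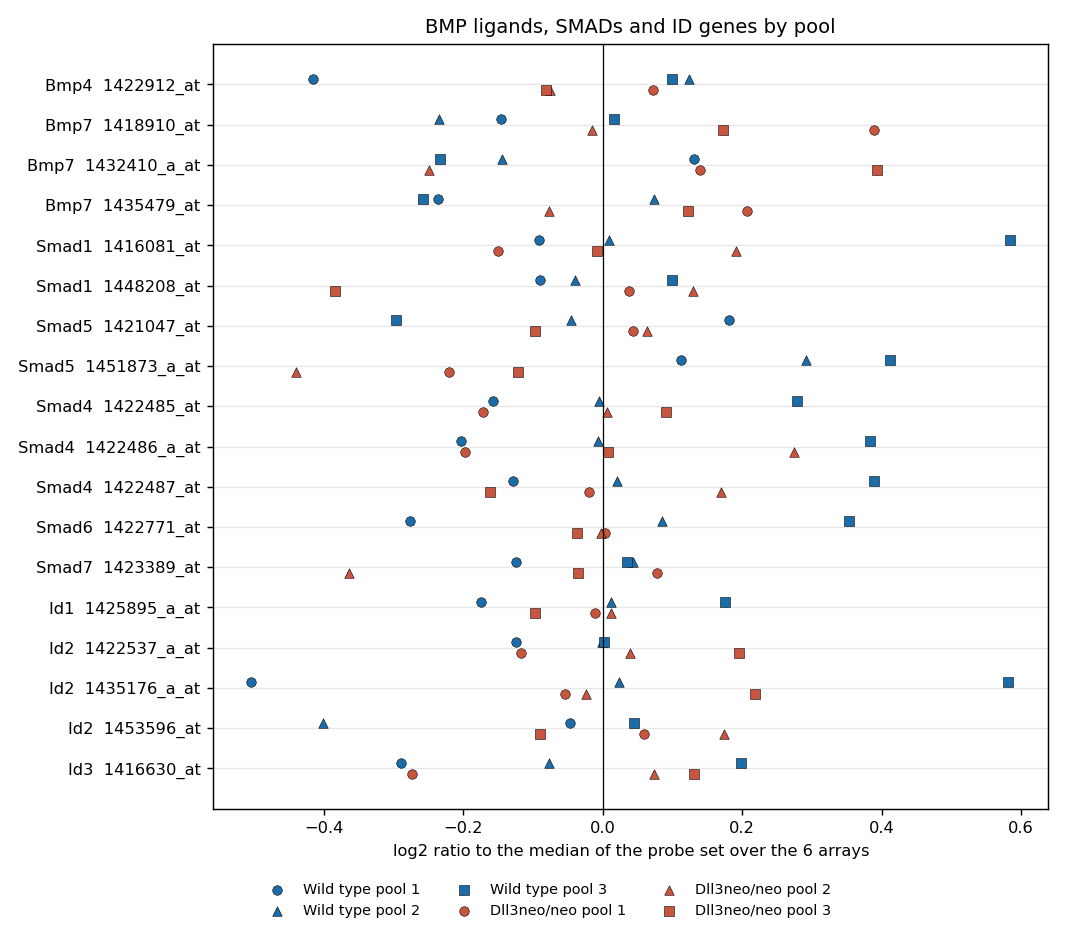
Log2 ratio to the probe set median (horizontal axis) for each of the 18 probe sets (vertical axis), with wild-type pools in blue above mutant pools in red and 1 symbol per pool number. Smad5 1451873_a_at is the 1 probe set with no overlap between colours, and Id2 1435176_a_at spans the widest range, within the wild type.

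Counted over the 18 probe sets by the sign of the log2 difference, 9 were lower and 9 were higher in the mutant. The median log2 difference was -0.0083, beside 50.9% lower and a median of -0.0021 for all 22626. Without wild-type pool 3 the count of lower probe sets was 4 of 18. The genotypes did not overlap for 1 of the 18, Smad5 1451873_a_at, where 5.03% of all probe sets showed no overlap in either direction. None of the 18 passed limma's test over all probe sets, and 2, Smad5 1451873_a_at and Bmp7 1418910_at, had an unadjusted p under 0.05, as did 1.16% of all probe sets. The range over the wild-type pools was larger than the difference between genotypes for 16 of the 18, and for 91.8% of all probe sets. Apart from Smad5 1451873_a_at, the other 8 SMAD probe sets and the 5 Id probe sets had log2 differences between -0.16 and 0.18, none without overlap.

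**Figure D3:**
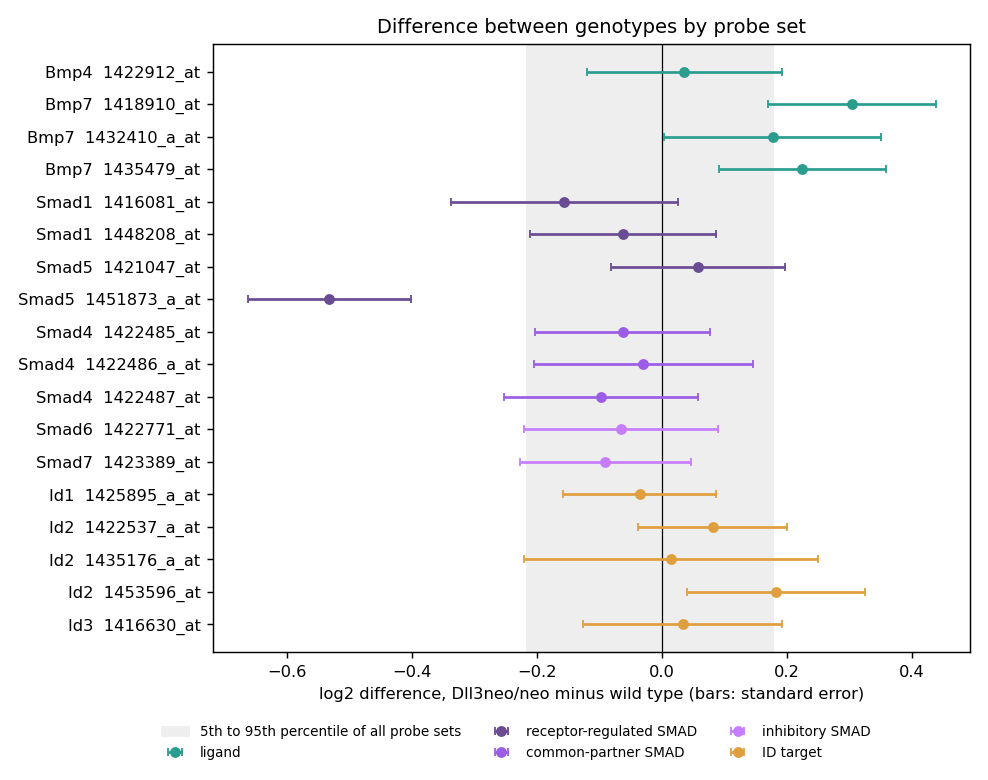
Log2 difference between genotypes, Dll3neo/neo minus wild type, with its standard error from limma as bars (horizontal axis), for the 18 probe sets by role (vertical axis). The grey band holds the 5th to 95th percentile of all 22626 probe sets, from -0.22 to 0.18, and Smad5 1451873_a_at lies to the left of it and 2 Bmp7 probe sets and Id2 1453596_at to the right.

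The SMAD and Id probe sets mostly followed 1 order of the wild-type pools. Wild-type pool 1 was the lowest and pool 3 the highest wild-type pool for 7 of 9 SMAD probe sets and 4 of 5 Id probe sets. That order held for 33.6% of all probe sets and for 0 of 3 Bmp7 probe sets. It held as well for 17 of 34 probe sets of intracellular SMAD regulators and 6 of 11 of bHLH partners of ID proteins. Over all 116 probe sets of the other pathway lists it held for 36. The SMAD count includes every probe set of Smad1 and of Smad4, so it is not a count of separate genes. The median log2 ratio of the SMAD probe sets was -0.13, 0.01 and 0.35 for wild-type pools 1, 2 and 3, and -0.02, 0.06 and -0.04 in the mutant pools. That of the Id probe sets was -0.17, -0.0014 and 0.18 across wild-type pools and -0.05, 0.04 and 0.13 in the mutant. In the mutant the SMAD medians stayed within a narrow span, and no mutant pool reached wild-type pool 3 in either group. These probe sets share the 6 arrays, and the order was noticed in the data.

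Marker medians did not all follow that order. Presomitic mesoderm and tail bud markers, 11 probe sets of genes such as Tbx6 and Cdx2, had medians of 0.12, 0 and 0.25 in the wild-type pools and -0.12, -0.25 and 0.08 in the mutant pools. Like Smad5 1451873_a_at their median was highest in wild-type pool 3 and lowest in mutant pool 2. By sign 10 of the 11 probe sets were lower in the mutant. Tbx6 and Cdx2 had the pool pattern of the median, but not all of the list did. Cdx1 was highest in mutant pool 2 at 1.13 and Dll1 in mutant pool 3 at 1.13. Somite markers, such as Meox1 and Uncx, were at -0.32, 0.04 and -0.24 across wild-type pools and at -0.01, 0.09 and -0.08 in the mutant. Endothelial markers, a cell type known for Id1 and Smad6 expression, were at -0.12, 0.0029 and -0.06 across wild-type pools and at 0.02, 0.06 and -0.0072 in the mutant, highest in mutant pool 2. Neural tube markers stayed between -0.02 and 0.05, and gut and yolk sac markers were lowest in wild-type pool 3 at -0.21. Primitive blood markers were highest in mutant pool 1 at 0.19. The part of cell composition in the Smad5, SMAD and Id values was not tested.

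**Figure D4:**
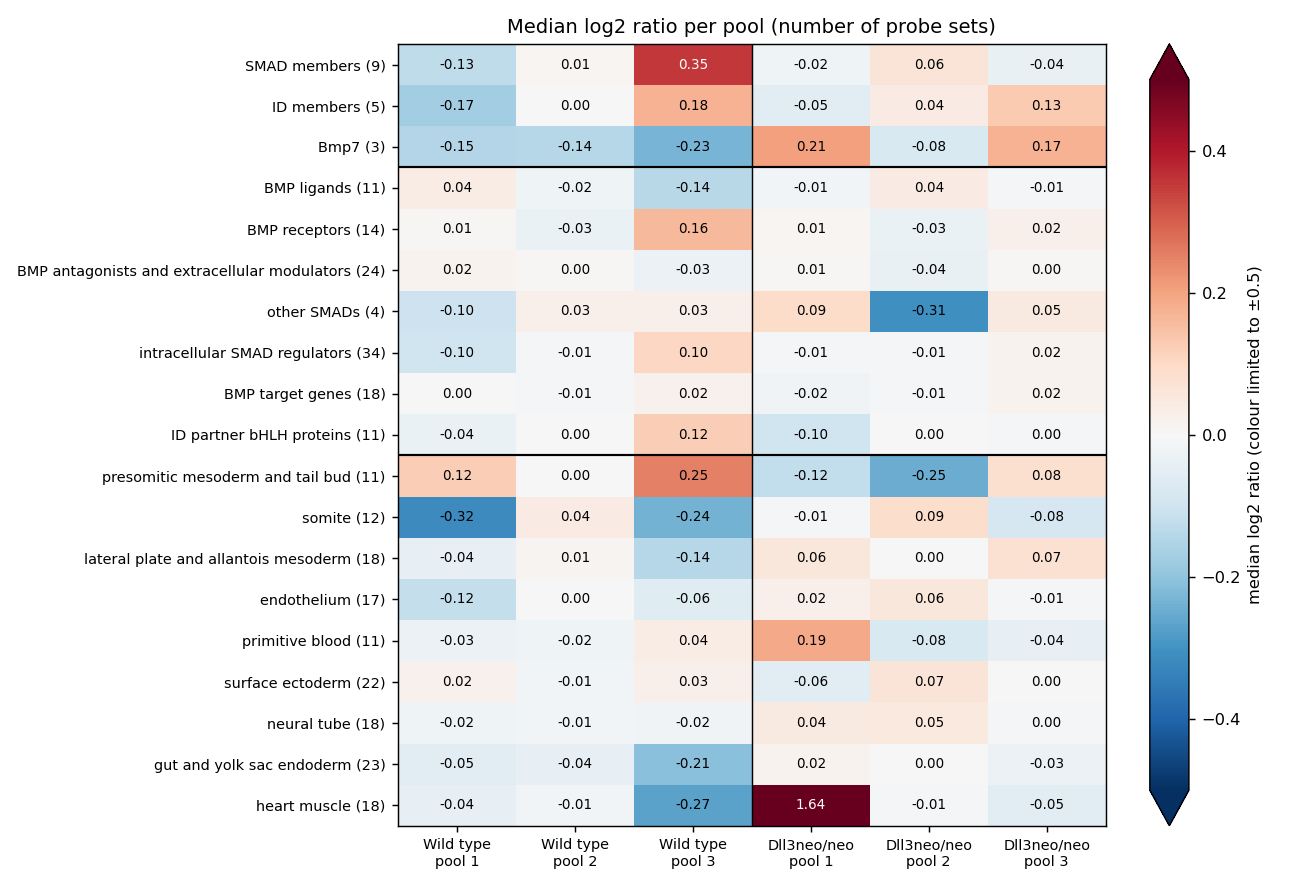
Median log2 ratio in each pool (columns, 3 wild-type and 3 Dll3neo/neo pools) of the SMAD, Id and Bmp7 probe sets, of the other BMP pathway lists and of the tissue marker lists (rows, with the number of probe sets), in colour and as numbers. The SMAD row is highest in wild-type pool 3 at 0.35, the Bmp7 row in mutant pool 1 at 0.21, and the heart muscle row in mutant pool 1 at 1.64, beyond the colour scale.

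The rest of the BMP pathway was read from 7 lists with 67 measured genes and 116 probe sets, of which 58 were on the lower and 58 on the higher side in the mutant. Their median log2 difference was 0.0010. In limma 0 of the 116 passed in either direction over all probe sets, and 1 had an unadjusted p under 0.05, beside 1.16% of all probe sets. The genotypes did not overlap for 4 of the 116, beside 5.03% of all probe sets. The probe set with that p reads Bmpr2 (1419616_at), the type II BMP receptor, at 1.18, 1.02 and 1.15 in the wild-type pools and at 0.908, 0.983 and 0.760 in the mutant pools. Its groups did not overlap, and the log2 difference was -0.34 (SE 0.13), and its limma adjusted p over all probe sets was 0.9999. Of the 14 receptor probe sets 10 were lower by sign with a median of -0.03, the 5 of the type I receptor Bmpr1a running from -0.15 to 0.0026.

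Among the other 11 ligand probe sets 4 were lower and 7 higher by sign, with a median of 0.07. The ligand without overlap was Bmp5 (1421283_at) at 0.968, 0.997 and 0.937 across wild-type pools and 1.27, 1.03 and 1.003 in the mutant, a difference of 0.18 (SE 0.12), while its other probe set gave -0.08. Of 24 probe sets for antagonists and extracellular modulators 10 were lower and 14 higher, with a median of 0.02. The gene named by the rule was Tll1, a tolloid-like protease that cleaves the antagonist chordin, at -0.16 (SE 0.10) without overlap. The antagonist genes Nog (-0.09) and Chrd (0.11) both overlapped.

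The remaining SMAD genes did not follow Smad5. Smad9 (1450265_at), another BMP-activated SMAD, had a log2 difference of 0.0060 (SE 0.12) and ran from 0.881 to 1.07 across wild-type pools and from 0.937 to 1.09 in the mutant. Smad2 (1420634_a_at), of the TGF-beta and Nodal branch, had -0.02 (SE 0.12). Smad3, of the same branch, had -0.10 (1450471_at, SE 0.22) and 0.0034 (1450472_s_at, SE 0.20), and both probe sets were lowest in mutant pool 2, at 0.625 and 0.677. Smad7 was lowest in that pool as well.

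Of 34 probe sets for intracellular SMAD regulators 16 were lower and 18 higher, with a median of 0.0098, and the largest difference was that of Zfyve16, an endosomal SMAD adaptor (-0.27, SE 0.15, with overlap). Of 18 probe sets for further BMP target genes 10 were lower and 8 higher, with a median of -0.02. Tbx3, a T-box target in lateral and limb mesoderm, had the largest difference at -0.26 (1448029_at, SE 0.15), with overlap. The bHLH partners that ID proteins bind gave 6 lower and 5 higher of 11 probe sets. Tcf4 (1416725_at) was at 0.976, 0.934 and 0.934 across wild-type pools and 1.02, 1.14 and 1.09 in the mutant, a difference of 0.19 (SE 0.11) without overlap, but its other 5 probe sets ran from -0.20 to 0.07. Tcf3 ran from -0.0074 to 0.07 over 3 probe sets and Tcf12 was at -0.17 and -0.15.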

How the data were processed

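The arrays were Affymetrix MOE430A. The authors deposited linear ratios. To judge by the numbers themselves, they divided each probe set by its median over the 6 arrays, which is 1 within 0.0011 for 92.8% of 22626 probe sets. Per the submitters' processing notes RMA and MAS5 were involved, with no role or order given, so summarisation, scaling between arrays and absolute level are unknown, and brightness could not be used as a filter. The 64 control probe sets were left out. Log2 ratios were fitted with limma 3.58.1 in R 4.3.3 (lmFit, eBayes, genotype as the only term, two-sided, Benjamini-Hochberg over all probe sets, threshold 0.05). The fit was tested on simulated data with independent noise for each probe set and array. Such noise holds no pool pattern shared by probe sets, so nothing about these arrays is read from that test. Fold changes are 2 to the power of the log2 difference. With 3 against 3 pools an exact permutation test cannot go below 0.10, so none was run. The series design text calls the pools biological replicates, and 6 arrays limit the precision.

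Members, gene lists and alternatives were chosen with earlier results of these data known. Every member probe set is named, and from each pathway list the gene with the largest difference among those without overlap, or in size where all overlap. The other SMAD genes, the bHLH partners and the 5 genes most like Smad5 are named too. Other pathway genes and individual markers given as examples were chosen after their values were seen. Names come from the platform annotation (20380 probe sets with 1 symbol, 691 with several, 1555 unnamed), and promoters from RefSeq, GRCm38.p6, with 6 of the 10 genes matched. Plots used matplotlib 3.10.9.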

Additional observations from a re-analysis of the deposited data

How the results depend on the processing

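Smad5 1451873_a_at, which was picked for being low, was lower in the mutant under all 16 alternatives run. Its log2 difference was -0.61 to -0.44 with 1 pool left out. It was -0.27 on log2(ratio + 1), which compresses ratios near 1. The mean of both Smad5 probe sets gave -0.24. Alternatives that changed only the variance estimate, the probe sets kept or the replicate block could not change the log2 difference of any member. Of the 18 probe sets 5 kept their sign in every alternative, namely Smad5 1451873_a_at, Bmp7 1418910_at and 1432410_a_at, and Id2 1422537_a_at and 1453596_at. The other 13 turned in at least 1, Bmp7 1435479_at to -0.0060 with array weights. The share of all probe sets that kept their sign is not given here, so nothing is read from these counts. The count of lower probe sets was 4 to 12 of 18 with 1 pool left out, and 6 of 10 genes by the mean of their probe sets. With 1 pool left out 0 to 1 probe sets over all passed the threshold. That number was 2 with quantile normalization, 4 with array weights and 0 without variance moderation, and no member was among them. The cause of these moves was not tested. With the replicate number as a block, 1 probe set passed. Each number holds 1 pool of each genotype, so the log2 differences could not change and 9 of the 18 stayed lower. Probe sets with an unadjusted limma p under 0.05 went from 262 to 434 over all. Same-numbered pools correlated in their deviations from the group means at 0.21, 0.02 and 0.17 for numbers 1, 2 and 3 over all probe sets. Wild-type pools 1 and 3 correlated best with the mutant pool of their own number. Their crossed values were -0.15 (wild-type 1 with mutant 3) and -0.21 (wild-type 3 with mutant 1). Wild-type pool 2 correlated best with mutant pool 1 (0.08). These values do not settle whether the pools were paired, and the numbers were not taken to pair them. Another scaling moved the median of all probe sets by less than the 0.1 at which a shift is reported. No level or depth is known, so dim probe sets could not be told from bright ones.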

Other observations

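Single probe sets of some other pathway genes were highest in wild-type pool 3, like most of those of the SMAD and Id genes. Those named here were singled out after their values were seen. Wild-type pool 3 was the highest wild-type pool for 58 of the 116 other pathway probe sets (50%), beside 47.6% of all probe sets. Id4 (1423259_at), the remaining Id gene, was at 0.771, 0.994 and 1.69 for wild-type pools 1, 2 and 3, and at 1.01, 0.908 and 1.19 in the mutant pools. Its other probe sets did not share that spread, 1423260_at running from 0.953 to 1.04 over the 6 pools and 1450928_at from 0.992 to 1.22 across wild-type pools and 0.834 to 1.22 in the mutant. Tob1 (1423176_at), an antiproliferative gene whose product binds SMADs, was at 0.861, 0.937 and 1.65 across wild-type pools and 0.956, 1.04 and 1.19 in the mutant. Acvr1 (1448460_at), a type I BMP receptor, was at 0.753, 0.908 and 1.75 across wild-type pools and 1.03, 0.972 and 1.03 in the mutant, while 1416787_at was at 1.29 in wild-type pool 1 and 0.893 in pool 3. The remaining Acvr1 probe set, 1416786_at, stayed between 0.945 and 1.09 over the 6 pools. Tbx3 was lower in the mutant by sign with both of its probe sets, at -0.26 (1448029_at) and -0.23 (1439567_at), with overlap in each.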
